A study of Mus musculus with 24 samples.

Results

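Enteroendocrine cells are hormone-secreting cells scattered singly through the lining of the gut, and 10 genes that mark them were examined in the mouse duodenum. The genes are Gip, Cck, Sct, Gcg, Ghrl, Sst, Nts and Tac1, which encode peptide hormones or transmitters, with the granule protein Chga and the serotonin-synthesis enzyme Tph1. They were chosen by symbol, with earlier results of these data known, and are 10 of the 25410 symbols in the tables. All 10 passed the filter on low values, an RPKM (read density scaled to transcript length and library size) of 0.5 or more in at least 6 of 24 libraries.

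RNA was sequenced from the duodenum of male Cyp27b1 null mice, which lack the enzyme that makes the active hormone 1,25(OH)2D3 (written 1,25D here). From weaning at 3 weeks of age all animals ate a purified diet deficient in vitamin D. The normal diet contained 0.47% calcium and 0.3% phosphorus, while the rescue diet contained 2% calcium, 1.25% phosphorus and 20% lactose. At 8 weeks of age mice were injected intraperitoneally with vehicle or with 1,25D at 2 ng per g of body weight, and tissue was taken after 6 h. The 4 groups, normal vehicle, normal 1,25D, rescue vehicle and rescue 1,25D, had 6 libraries each. No group had an intact Cyp27b1 gene or a diet with vitamin D. Which animal each library came from is not in the labels, and the p-values here reflect only how far these libraries differ, which may be technical.

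Each type of enteroendocrine cell is classed by its main product, although many cells make several. K cells release gastric inhibitory peptide (Gip), which amplifies insulin release after a meal; I cells release cholecystokinin (Cck), which empties the gallbladder and stimulates the pancreas; S cells release secretin (Sct), which drives bicarbonate secretion. D cells release somatostatin (Sst), a brake on the other hormones, and enterochromaffin cells make serotonin through tryptophan hydroxylase (Tph1) and often substance P (Tac1). Proglucagon (Gcg) gives the peptides GLP-1 and GLP-2, neurotensin (Nts) is typical of the more distal gut, and ghrelin (Ghrl) is a hunger signal. These cells sense nutrients, and calcium is among their known stimuli.

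The injection was visible in every library. Cyp24a1, the 1,25D-degrading enzyme and a classical target, was between 0.016 and 4.03 RPKM in the 12 vehicle libraries and between 92.07 and 1036 RPKM in the 12 libraries with 1,25D. Cyp27b1 was at most 0.452 RPKM in every library; the labels do not say which part of the gene was removed, so this is a weak check. Summed RPKM ran from 541395 to 697913. Read totals are not given with RPKM, and the estimated depth differed 2.71-fold between the deepest and the shallowest library. Markers of neighbouring tissue varied between libraries. The summed RPKM of 30 exocrine pancreas genes ran from 5571 to 132100 in normal vehicle, 3078 to 29610 in normal 1,25D, 1281 to 20630 in rescue vehicle and 1542 to 47770 in rescue 1,25D. Normal vehicle replicate 6 held the highest pancreas sum, and normal vehicle replicate 1 the highest smooth muscle sum (1097) and enteric neuron sum (67.95). Pdx1, a duodenal and pancreatic transcription factor, was between 15.42 and 58.75 RPKM, and the summed RPKM of 18 general epithelial genes was between 2401 and 4927 across the libraries.

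The sequence just before the start of 4 of the genes is shown because they form the 2 pairs with the closest relation across libraries, Gip with Chga and Cck with Sst (values below). The sequences are the 250 bases before the RefSeq start in GRCm38.p6, read 5′ to 3′ on the gene's strand. Gip is at chr11:96024295-96024544 (plus strand), Chga at chr12:102554691-102554940 (plus), Cck at chr9:121495695-121495944 (minus) and Sst at chr16:23890845-23891094 (minus). Capitals mark matches to CANNTG, the E-box read by basic helix-loop-helix factors such as those of the endocrine lineage, and to TGACGTCA, the cAMP response element for which the somatostatin promoter is a textbook case.
Gip: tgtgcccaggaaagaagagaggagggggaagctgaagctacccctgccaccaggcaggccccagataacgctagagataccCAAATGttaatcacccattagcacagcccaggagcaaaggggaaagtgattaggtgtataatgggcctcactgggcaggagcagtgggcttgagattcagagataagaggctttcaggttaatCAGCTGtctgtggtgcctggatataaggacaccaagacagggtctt
Chga: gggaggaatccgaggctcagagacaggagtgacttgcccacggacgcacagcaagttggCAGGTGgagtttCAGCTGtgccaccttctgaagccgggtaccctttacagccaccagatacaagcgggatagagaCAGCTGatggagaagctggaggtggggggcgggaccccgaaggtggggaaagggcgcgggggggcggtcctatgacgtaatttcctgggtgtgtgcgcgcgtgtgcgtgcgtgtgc
Cck: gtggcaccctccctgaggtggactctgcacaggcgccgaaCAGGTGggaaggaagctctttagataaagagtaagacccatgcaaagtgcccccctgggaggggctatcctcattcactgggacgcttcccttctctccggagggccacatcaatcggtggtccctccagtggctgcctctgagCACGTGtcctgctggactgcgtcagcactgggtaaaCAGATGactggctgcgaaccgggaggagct
Sst: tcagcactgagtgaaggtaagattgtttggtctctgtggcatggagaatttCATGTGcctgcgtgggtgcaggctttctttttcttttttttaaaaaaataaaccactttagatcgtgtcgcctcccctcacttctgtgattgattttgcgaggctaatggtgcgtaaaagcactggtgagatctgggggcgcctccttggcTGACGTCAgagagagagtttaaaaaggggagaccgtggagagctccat

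Both strands were searched for 6 motifs in these windows: the E-box CANNTG, the cAMP response element TGACGTCA, the nuclear receptor half-site AGGTCA, the vitamin D receptor half-site GGTTCA, the homeodomain core TAATTA and the TATA box TATAAA. No matches of different motifs overlapped in the 4 windows shown. The Sst window held TGACGTCA from 48 to 41 bases before the start, a sequence in 1.55% of the 32851 upstream windows of this length. Gip held 2 matches to CANNTG, the nearer from 46 to 41 bases before the start, while Chga held 3 and Cck 3. CANNTG is common, with a match in 66.2% of all windows, and it was found in 10 of the 14 windows of the 10 genes. The receptor half-site GGTTCA was found only in the Nts window among the 14, and in 8.85% of all windows. AGGTCA was found in 4 of the 14 and in 14.0% of all windows; 2 of the 4 are overlapping Ghrl windows that hold the same site. These matches describe letters and no binding was measured.

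Gip was the most abundant of the 10 transcripts. Its mean over the 24 libraries was 38.75 RPKM, higher than 93.21% of all symbols, and it ran from 15.3 to 69.7. Cck followed at 18.9 RPKM, then Sst at 14.26, Chga at 14.2 and Tph1 at 10.82. Ghrl averaged 6.40 RPKM, Tac1 5.33, Sct 2.83, Gcg 2.43 and Nts 1.38. Gip made up 33.61% of the summed level of the 10 genes.

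Some neighbours in this order were not separated by their spread. Gip exceeded Cck in 24 of 24 libraries, Cck exceeded Sst in 20, and Chga exceeded Tph1 in 22. By contrast Sst exceeded Chga in 15 of 24 libraries, and their paired log2 difference was -0.02 with an SD of 0.53. Sct exceeded Gcg in 14 libraries and Ghrl exceeded Tac1 in 16. Tph1 exceeded Ghrl in 20, Tac1 exceeded Sct in 22, and Gcg exceeded Nts in 20.

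**Figure D1:**
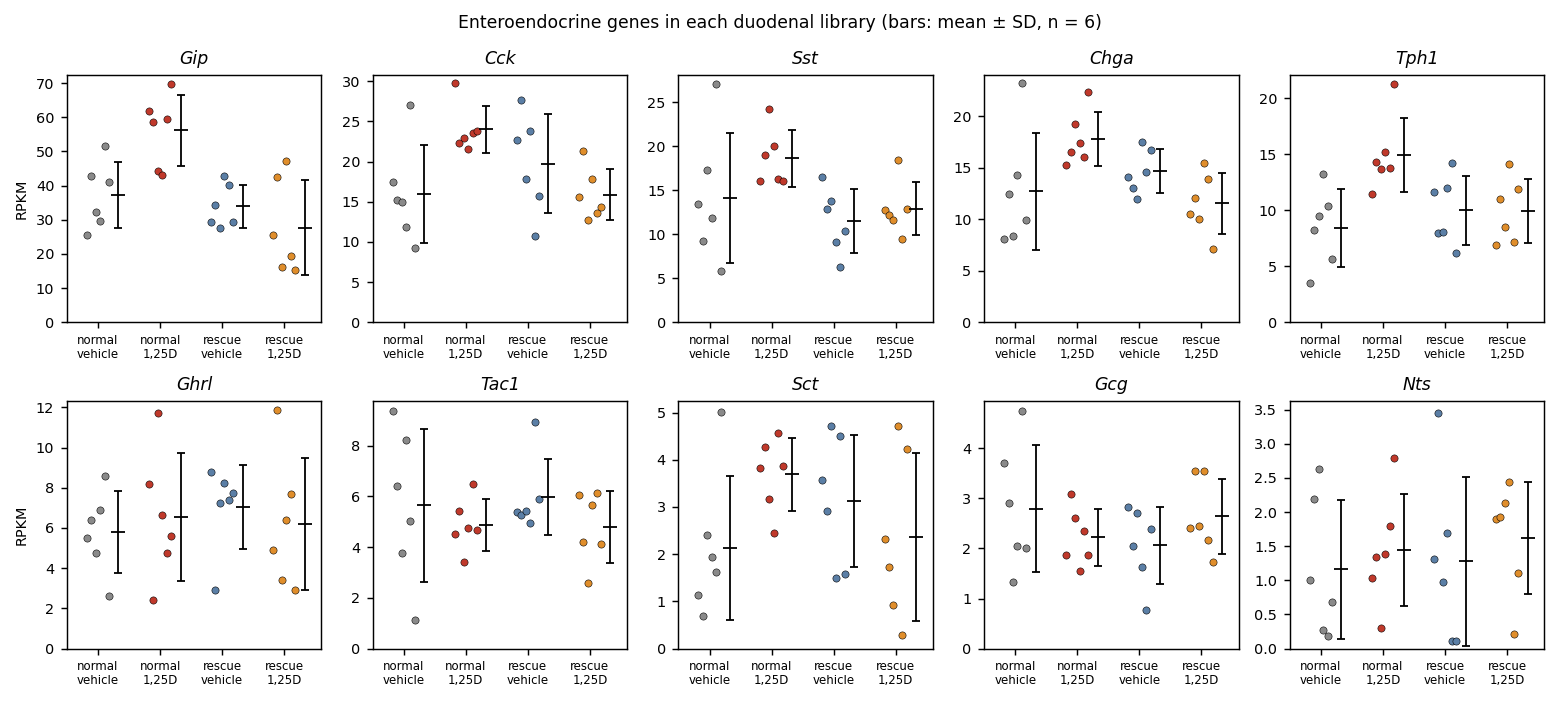
RPKM of each of the 10 genes (vertical axes, linear, starting at 0) in the 24 libraries, by group; each point is 1 library and bars are mean ± SD of 6 libraries. The normal 1,25D libraries of Gip sit between 43.1 and 69.7 RPKM, and those of rescue 1,25D between 15.3 and 47.2.

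How far a level stands above background was gauged from 1424 odorant and pheromone receptor symbols, whose known sites of use are sensory; this yardstick was chosen after the data were seen. The means of Gip, Cck, Sst, Chga and Tph1 exceeded 100% of these receptor genes, Ghrl 99.86% and Tac1 99.65%. Sct exceeded 90.24% and Gcg 85.18%. Sct lay above the receptor median in 21 of 24 libraries and Gcg in 23. They lay above the receptor 95th percentile in only 9 and 6, which limits the reading of their values. Nts exceeded 51.05% of the receptor genes and lay above the receptor median in 9 of 24 libraries. Nts was thus not distinguishable from background RNA in most libraries, and its values below are given with that limit. The distal gut hormones Pyy (0.342 RPKM) and Insl5 (0.26 RPKM), which were not among the 10, were lower still.

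Injection of 1,25D on the normal diet came with higher levels of Gip, Cck, Chga and Tph1 on average, but none of the 10 genes passed the test across all genes. With limma and Benjamini-Hochberg adjustment 0 of 10 were called, where 1.84% of the 20006 genes tested were. At an unadjusted p under 0.05 there were 5 of 10, all higher in 1,25D (Gip, Cck, Sct, Chga and Tph1), where 9.74% of all genes were. Above 0 were 8 of 10, and 58.8% of all genes. The median log2 fold change of the 10 was 0.54, and that of all genes was 0.05. The 10 genes were measured in the same libraries and are not independent of each other. In whole duodenum, fewer cells of a type and less RNA per cell cannot be told apart.

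Gip ran from 25.6 to 51.6 RPKM (median 36.7) in normal vehicle and from 43.1 to 69.7 (median 59.1) in normal 1,25D. The ranges overlapped, with 1 high library of vehicle, replicate 5, above the lowest of 1,25D. Gip was higher by 0.61 on the log2 scale (SE 0.23, unadjusted p = 0.0156, limma adjusted p = 0.237), or 1.52-fold. It did not pass the test; its 95% interval ran from 0.13 to 1.09.

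Cck ran from 9.30 to 27.1 RPKM (median 15.03) in normal vehicle and from 21.6 to 29.8 (median 23.3) in normal 1,25D. Only normal vehicle replicate 5 reached the 1,25D range. On the log2 scale the difference was 0.64 (SE 0.21, unadjusted p = 0.00499, limma adjusted p = 0.127). Over the 24 fits that each left out 1 library the value ran from 0.51 (without normal vehicle replicate 6) to 0.81, with limma adjusted p-values from 0.0262 to 0.241. Cck was called in 1 of the 24, without normal vehicle replicate 5.

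Chga, a scaffold protein of the secretory granule found in most enteroendocrine cells, ran from 8.13 to 23.3 RPKM (median 11.2) in normal vehicle and from 15.3 to 22.4 (median 17.0) in normal 1,25D, and again the vehicle library replicate 5 alone reached the 1,25D range. Chga was higher by 0.55 on the log2 scale (SE 0.20, unadjusted p = 0.0106, limma adjusted p = 0.191). Leaving out 1 library gave values from 0.45 (without normal vehicle replicate 1) to 0.74 and limma adjusted p-values from 0.0209 to 0.386. Chga was called in 1 of these 24 fits, without normal vehicle replicate 5.

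Tph1 had the smallest p of the 10. It ran from 3.51 to 13.3 RPKM (median 8.84) in normal vehicle and from 11.4 to 21.3 (median 14.1) in normal 1,25D. The highest vehicle library, replicate 4, overlapped the 1,25D range. Tph1 was higher by 0.88 on the log2 scale (SE 0.25, unadjusted p = 0.00161, limma adjusted p = 0.0701). Without normal vehicle replicate 4 it was 1.02 (limma adjusted p = 0.0266), and without replicate 1 it was 0.67 (adjusted p = 0.19).

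The tables list Tph1 in 2 entries, which were summed. The entry that carries most of the signal had a mean of 7.52 RPKM in normal vehicle and 14.7 RPKM in normal 1,25D. It was at 0 in 1 normal vehicle library, replicate 1, the same one in which the other entry gave 3.51 RPKM, its highest value. That library thus held the lowest summed Tph1 value of the 24. It is the one whose removal lowered the log2 fold change of Tph1 to 0.67. How reads were divided between the entries is not given in the sources used here.

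Sct, at a far lower level, ran from 0.687 to 5.01 RPKM (median 1.77) in normal vehicle and from 2.45 to 4.57 (median 3.85) in normal 1,25D. The vehicle range enclosed the 1,25D range, and the highest vehicle library was replicate 6, the one with the highest pancreas sum. Sct differed by 0.83 on the log2 scale (SE 0.39, unadjusted p = 0.0442, limma adjusted p = 0.393). Sst ran from 5.81 to 27.1 RPKM (median 12.6) and from 16.0 to 24.2 (median 17.6), again with the vehicle range enclosing the other. Its log2 fold change was 0.52 (unadjusted p = 0.0515, adjusted p = 0.425). For neither gene was the difference resolved at this spread.

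The remaining 4 genes gave small differences. Ghrl had medians of 5.97 and 6.14 RPKM (log2 0.11, limma adjusted p = 0.99) and Tac1 of 5.71 and 4.71 RPKM (log2 -0.01, adjusted p = 0.999). Gcg had medians of 2.49 and 2.11 RPKM (log2 -0.21, adjusted p = 0.902) and Nts of 0.847 and 1.36 (log2 0.34, adjusted p = 0.933). The ranges of all 4 overlapped.

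These values were smaller for most genes without the vehicle libraries richest in pancreas or muscle RNA. With normal vehicle replicates 1 and 6 left out, which was decided with the data in view, the log2 fold change of Tph1 was 0.51, of Chga 0.36, of Sst 0.28, of Cck 0.52, of Gip 0.53 and of Sct 1.01. With the summed pancreas level as a covariate Tph1 was 0.55 and Chga 0.37, and with the general epithelial sum Tph1 was 0.53 and Cck 0.43. None of the 10 genes was called in any of these fits. Of all 20006 genes, 202 were called without the 2 libraries, 149 with the pancreas covariate and 89 with the epithelial one. The main fit called 368, and also none of the 10. The share of these markers in the differences was otherwise not tested.

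On the rescue diet none of the 10 genes was higher after 1,25D by the test. With limma 0 of 10 were called, where 0.145% of all genes were, and 0 of 10 reached an unadjusted p under 0.05, where 4.83% of all genes did. The median log2 fold change of the 10 was -0.25, beside 0.06 for all genes. Above 0 were 3 of 10, and 60.9% of all genes. Gip ran from 27.5 to 42.9 RPKM (median 31.9) in rescue vehicle and from 15.3 to 47.2 (median 22.4) in rescue 1,25D. In rescue 1,25D replicates 2 and 4 were high (42.5 and 47.2 RPKM) and the other 4 lay between 15.3 and 25.5. Its log2 fold change was -0.41 (SE 0.23, limma adjusted p = 0.878), with a 95% interval from -0.89 to 0.07.

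Cck had medians of 20.3 RPKM in rescue vehicle (10.7 to 27.7) and 14.9 RPKM in rescue 1,25D (12.8 to 21.3), a log2 fold change of -0.26 (95% interval -0.69 to 0.17). Chga had medians of 14.4 (12.0 to 17.5) and 11.3 RPKM (7.16 to 15.5), a log2 fold change of -0.36 (interval -0.77 to 0.05). Tph1 had medians of 9.83 (6.19 to 14.2) and 9.76 RPKM (6.86 to 14.1), a log2 fold change of 0.00 (interval -0.51 to 0.51). The ranges of all 3 overlapped between the injections. Sct gave -0.52, Sst 0.19, Ghrl -0.24, Tac1 -0.31, Gcg 0.33 and Nts 0.43 on the log2 scale, with limma adjusted p-values from 0.878 to 0.901.

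Diet alone, compared under vehicle, came with small differences. No gene of the 10 and no gene of the 20006 tested was called (0%), and at an unadjusted p under 0.05 there were 0 of the 10 and 7.18% of all genes. Log2 fold changes of rescue against normal ran from -0.34 (Gcg) to 0.54 (Sct), with a median of 0.26 beside 0.10 for all genes. Gip had a log2 fold change of -0.11 with a 95% interval from -0.59 to 0.37. The interval for Tph1 ran from -0.22 to 0.80 and that for Chga from -0.13 to 0.69. Under vehicle, then, differences of up to about these sizes between the diets were not resolved.

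Under 1,25D, Gip, Cck and Chga were lower on the rescue diet on average. The 10 genes had a median log2 fold change of -0.56 for rescue against normal, beside 0.12 for all genes. With limma 0 of 10 were called, where 0.01% of all genes were. At an unadjusted p under 0.05 there were 5 of 10, all lower on the rescue diet, where 3.2% of all genes were. This comparison shares the normal 1,25D libraries with the one of 1,25D on the normal diet, so the pair are not separate evidence.

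Gip was 2.18-fold lower on the rescue diet under 1,25D, a median of 22.4 RPKM against 59.1. Only rescue replicate 4 (47.2 RPKM) reached the normal range, which began at 43.1. On the log2 scale the difference was -1.13 (SE 0.23, 95% interval -1.61 to -0.64, unadjusted p = 6.13e-05), and Gip ranked 7 of 20006 genes by p in this comparison. Its limma adjusted p was 0.142. Leaving out 1 library gave values from -1.31 (without rescue 1,25D replicate 4) to -0.99 (without rescue 1,25D replicate 6), with adjusted p-values from 0.0118 to 0.473, and Gip was called in 1 of these 24 fits, without replicate 4. Among 14 other settings it was called in 1, with library weights (-1.02, adjusted p = 0.00922), a fit that called 1287 genes in all.

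Cck did not overlap between the diets under 1,25D. Its lowest normal library was at 21.6 RPKM and its highest rescue library at 21.3 RPKM, a separation toward lower values that 0.275% of all genes showed. Cck was lower by a log2 fold change of -0.59 (SE 0.21, unadjusted p = 0.00874, limma adjusted p = 0.48). Chga gave -0.63 (SE 0.20, adjusted p = 0.421), Tph1 -0.59 (adjusted p = 0.543), Sct -0.81 (adjusted p = 0.592) and Sst -0.53 (adjusted p = 0.596). With library weights Chga and Tph1 were called as well (adjusted p = 0.0211 and 0.0478). Ghrl, Tac1, Gcg and Nts differed by at most 0.20 on the log2 scale, and each 95% interval included 0.

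The interaction compares the effect of 1,25D on one diet with that on the other. With limma 0 of 10 genes were called, where 0.005% of all genes were, so a difference between the diets was not established for any of the 10. At an unadjusted p under 0.05 there were 5 of 10, all with a lower effect on the rescue diet, where 5.59% of all genes were. The log2 difference of effects (rescue minus normal) was -1.02 for Gip (SE 0.33, adjusted p = 0.361), -0.91 for Cck (SE 0.30, adjusted p = 0.361) and -0.91 for Chga (SE 0.28, adjusted p = 0.32). It was -0.88 for Tph1 (adjusted p = 0.552) and -1.35 for Sct (adjusted p = 0.566). The median of the 10 was -0.61, beside 0.01 over all genes. Above 0 were 2 of 10, and 51.7% of all genes. Gcg was the largest exception at 0.54, with a 95% interval from -0.18 to 1.27.

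**Figure D2:**
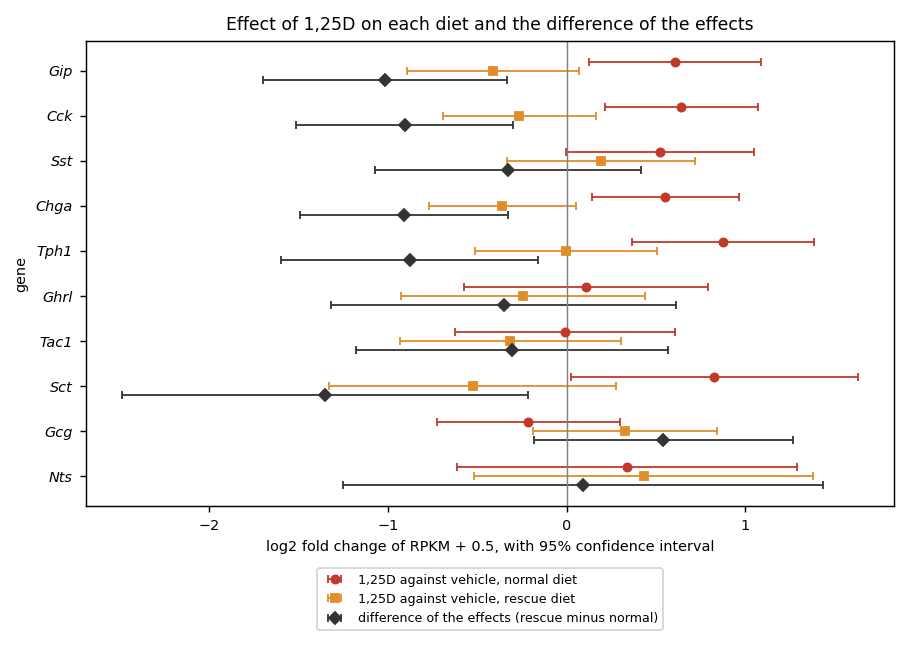
Log2 fold change of RPKM + 0.5 (horizontal axis) with 95% confidence interval for each gene: 1,25D against vehicle on the normal diet (circles), on the rescue diet (squares) and the difference of these effects (diamonds). Intervals for Gip, Cck, Chga, Tph1 and Sct lie above 0 on the normal diet and include 0 on the rescue diet; no gene passed the adjusted threshold.

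With the 2 diets pooled, 1,25D against vehicle called 0 of 10 genes beside 1.28% of all genes, and 1 of 10 (Tph1, log2 0.44, limma adjusted p = 0.353) had an unadjusted p under 0.05 beside 9.78% of all genes. With the injections pooled, diet called 0 of 10 beside 0% of all genes, and again 1 of 10 (Gip, log2 -0.62, adjusted p = 0.317) reached an unadjusted p under 0.05 beside 9.5%. Both pooled comparisons use the same libraries as those above.

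Spread within groups differed between genes. The within-group SD on the log2 scale was lowest for Chga (0.36) and Cck (0.38) and highest for Nts (0.86) and Sct (0.73). The coefficient of variation was lower in normal 1,25D than in normal vehicle for 9 of 10 genes, as for 88.22% of all genes. It was the lowest of the 4 groups there for 7 of 10 genes, and for 56.42% of all genes; Chga, Ghrl and Nts were lower in a rescue group. The coefficient for Cck was 12.3% in normal 1,25D and 38.4% in normal vehicle. For Gip it was 18.6% in normal 1,25D and 50.0% in rescue 1,25D.

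Several of the genes varied together from library to library. Among 45 pairs of the 10 genes, 3 had a Benjamini-Hochberg adjusted p under 0.05 by permutation of Pearson's r over 24 libraries. Gip and Chga had r = 0.69 (rho = 0.72, permutation p = 0.00019 for each, adjusted p = 0.00428 for r and 0.00855 for rho), and r was 0.57 without the 2 farthest libraries and 0.56 with group means removed. Cck and Sst had r = 0.69 (rho = 0.57, permutation p = 0.00016 and 0.00387, adjusted p = 0.00428 and 0.029), with r = 0.62 without the 2 farthest and 0.69 with group means removed. Chga and Tph1 had r = 0.58 (rho = 0.60, permutation p = 0.00283 and 0.0022, adjusted p = 0.0425 and 0.0221), with 0.61 without the 2 farthest and 0.43 with group means removed. All 3 relations stayed positive with group means removed. Ghrl and Nts had the lowest r of all pairs, -0.37 (rho = -0.40, adjusted p = 0.259 for r by permutation). The labels give no sequencing batch, so no within-batch value could be computed.

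**Figure D3:**
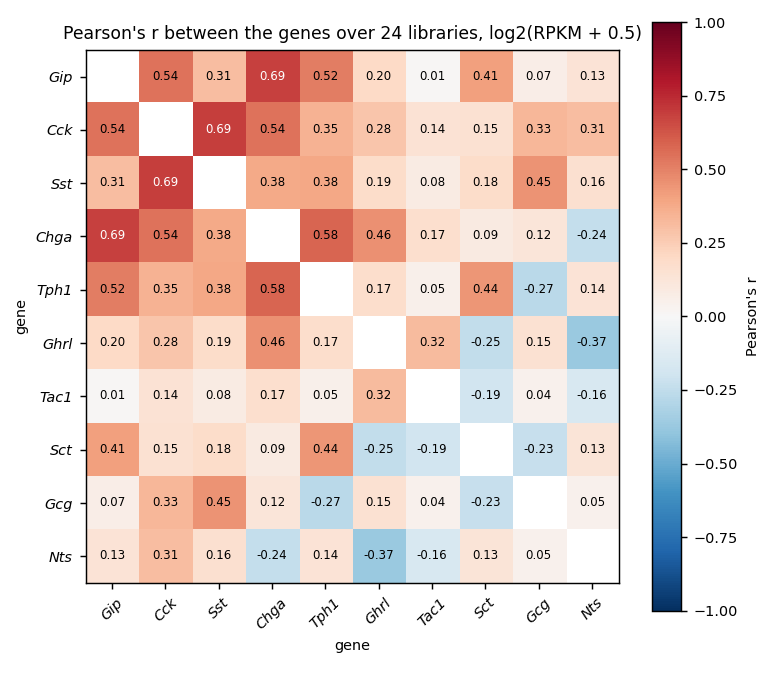
Pearson's r of log2(RPKM + 0.5) over the 24 libraries for each pair of the 10 genes, from blue (-1) to red (1), with r printed in each cell. Gip, Cck, Sst, Chga and Tph1 form a block of positive values between 0.31 and 0.69, while values involving Tac1 lie between -0.19 and 0.32.

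For each gene the 3 other genes with the highest r over the 24 libraries were taken as a description. Chga was nearest to Chgb (r = 0.81), the other chromogranin of the same granules. Tph1 was nearest to Slc25a13 (r = 0.92), the mitochondrial aspartate-glutamate carrier, Gstk1 (0.90) and 1110020G09Rik (0.89). Cck was nearest to Dgcr6 (0.83), Tnik (0.80) and Aco1 (0.80), and Sst to Cldnd1 (0.82), Xpr1 (0.81) and Adamtsl5 (0.80). Tac1 lay near LOC100504125 (0.84), the Paneth cell lysozyme Lyz1 (0.82) and Phip (0.80), and Ghrl near Gm14288 (0.83) and Add3 (0.78). Sct lay near Leap2 (0.77), the liver-expressed antimicrobial peptide that antagonises the ghrelin receptor, and Gip near 6030445D17Rik (0.72) and catalase, Cat (0.70). Gcg lay near Rgs6 (0.77). For Nts the nearest genes were Efcab1 (0.85) and the vomeronasal receptors Vmn2r12 (0.85) and Vmn1r151 (0.84).

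Marker sums of other cell types were related to the 10 genes over the 24 libraries in 60 relations, and 3 had an adjusted p under 0.05 for r. Tph1 was higher where an islet list was higher (r = 0.79, rho = 0.79, permutation adjusted p = 0.0006 for both) and was lower where smooth muscle was higher (r = -0.66, rho = -0.65, permutation adjusted p = 0.012 and 0.0134). Without the 2 farthest libraries these were 0.77 and -0.51. Sct had the same sign with the islet list (r = 0.66, rho = 0.54, permutation adjusted p = 0.012 and 0.0765, and 0.59 without the 2 farthest). That list includes Slc2a2, a glucose transporter that the gut epithelium also expresses. The exocrine pancreas sum had r = -0.56 with Tph1 (rho = -0.54, permutation adjusted p = 0.0583 and 0.0765, and -0.44 without the 2 farthest). The insulin genes Ins1 and Ins2 summed to at most 18.59 RPKM, in normal vehicle replicate 6, and to at most 1.96 RPKM in the other groups; Ins2 was at 0 in 13 of 24 libraries. Gast, the gastric antral hormone, was at 0 in 16.

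For 1,25D on the normal diet the lists of other cell types gave the following. The 30 exocrine pancreas genes had a median log2 fold change of -3.30, the 16 smooth muscle genes -0.40 and the 9 tested islet genes -0.28. The 10 tested enteric neuron genes had -0.01 and the 7 tested mast cell genes -0.08. The 7 tested tuft cell genes had 0.17 and the 7 tested gastric and Brunner gland genes 0.49. None of these genes was called by limma. The 18 general epithelial genes had a median of 0.21, and 2 rose: the adhesion protein Cdh17 (log2 0.94, adjusted p = 0.00758) and the membrane linker Ezr (log2 0.98, adjusted p = 0.0179). Cdh17 was called in 11 of 14 other settings and Ezr in 9 of 14. Ezr was also lost without normal vehicle replicate 1 (adjusted p = 0.0501) and without normal 1,25D replicate 3 (adjusted p = 0.0522).

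Nts varied with the background. Over the 24 libraries its r with the summed RPKM of the odorant and pheromone receptor genes was 0.78 (rho = 0.65, permutation adjusted p = 0.0006 and 0.0255 over 30 relations chosen after the data were seen). Without the 2 farthest libraries r was 0.73, and with group means removed it was 0.78. In the same set Tph1 had r = 0.60 with the general epithelial sum (rho = 0.51, permutation adjusted p = 0.0357 and 0.174, and 0.52 without the 2 farthest).

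**Figure D4:**
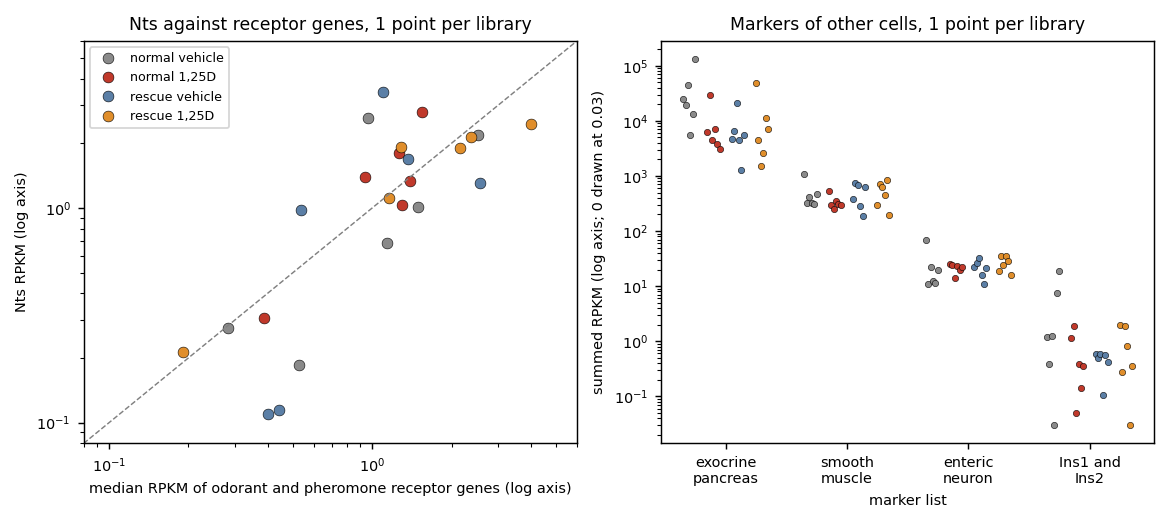
Left, RPKM of Nts against the median RPKM of odorant and pheromone receptor genes, 1 point per library, log axes, dashed line at equality; right, summed RPKM (log axis, 0 drawn at 0.03) of marker lists of other cells in each library. Nts lies above the line in 9 of 24 libraries, and the exocrine pancreas sum reaches 132100 in 1 normal vehicle library.

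Other genes of the endocrine program gave few differences. Of 17 tested genes of granules and prohormone processing, 0 were called on the normal diet (median log2 -0.07). At an unadjusted p under 0.05 there were 1 higher and 1 lower, where 12% of all genes reached it in either direction. Chgb, the most abundant of this list, ran from 46.0 to 113 RPKM in normal vehicle and from 80.4 to 122 in normal 1,25D. Its log2 fold change was 0.39 (SE 0.18, limma adjusted p = 0.356), on the rescue diet it was -0.33 (adjusted p = 0.878), and the difference of these effects was -0.72 (SE 0.25, adjusted p = 0.426). Pcsk1, the convertase that cuts prohormones, had medians of 8.25 and 9.26 RPKM (log2 0.24, adjusted p = 0.65). Of 12 other hormones and amine enzymes, 0 were called on the normal diet (median log2 -0.05). With an unadjusted p under 0.05 were 0 higher and 1 lower, beside the same 12% of all genes. Ddc, which completes serotonin synthesis after Tph1, gave log2 0.26 on the normal diet and -0.47 on the rescue diet (adjusted p = 0.703 and 0.878).

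Of 21 tested transcription factors of the endocrine lineage, 1 was called, and it rose. Pdx1 went from a mean of 23.5 ± 7.92 RPKM (SD, n = 6) in normal vehicle to 48.9 ± 7.50 in normal 1,25D, with no overlap between ranges of 15.4 to 33.6 and 38.5 to 58.8, a separation toward higher values that 2.13% of all genes showed. The log2 fold change was 1.09 (SE 0.18, limma adjusted p = 0.000708), and Pdx1 was called in 24 of 24 fits that left out 1 library and in 14 of 14 other settings. On the rescue diet it was 0.65 (SE 0.18, adjusted p = 0.312), which was called in 2 of 14 other settings (library weights, adjusted p = 0.0366, and the general epithelial covariate, adjusted p = 0.0174), and the difference of effects was -0.44 (adjusted p = 0.823). With the 2 diets pooled, Pdx1 had a log2 fold change of 0.87 (SE 0.12, limma adjusted p = 0.000121), where 1.28% of all genes were called. This pooled value was called in 24 of 24 fits that left out 1 library and in 13 of 13 other settings. It uses the same libraries as the values on each diet. Pdx1 is expressed across the duodenal epithelium as well as in endocrine cells, so these values are not specific to the latter.

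Neurog3, the factor that starts the endocrine lineage, was low in every library. It ran from 1.34 to 2.30 RPKM in normal vehicle and from 1.01 to 1.29 in normal 1,25D, without overlap, as did 0.085% of all genes toward lower values. Its log2 fold change was -0.44 (SE 0.19, unadjusted p = 0.0285, limma adjusted p = 0.315), so it did not pass the test. Its mean of 1.54 RPKM exceeded 57.87% of the receptor genes used as background, which limits the reading of this value. Neurod1 at 1.44 RPKM stood at 53.44%.

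Among 15 tested nutrient and calcium sensors 0 were called on the normal diet. At an unadjusted p under 0.05 there were 3 higher and 0 lower, where 12% of all genes reached it in either direction. The glucose transporter Slc5a1, which enterocytes hold in far larger amount than endocrine cells, had medians of 787.2 and 1599 RPKM on the normal diet (log2 1.00, SE 0.40, limma adjusted p = 0.258) and 1286 and 631.2 on the rescue diet (log2 -0.53, adjusted p = 0.878). The difference of effects was -1.53 (SE 0.56, adjusted p = 0.486). The peptide transporter Slc15a1 gave 1.04 and -0.71 (adjusted p = 0.287 and 0.878). The calcium-sensing receptor Casr averaged 0.267 RPKM and did not pass the filter. Of 12 tested receptors of the hormones 0 were called on the normal diet. With an unadjusted p under 0.05 were 0 higher and 2 lower, beside the same 12% of all genes. The cholecystokinin receptor Cckar, abundant in the pancreas, gave log2 -1.42 on the normal diet (SE 0.48, adjusted p = 0.148), in the same libraries in which the median of 30 pancreas genes was -3.30. Whether these values are linked was not tested.

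**Figure D5:**
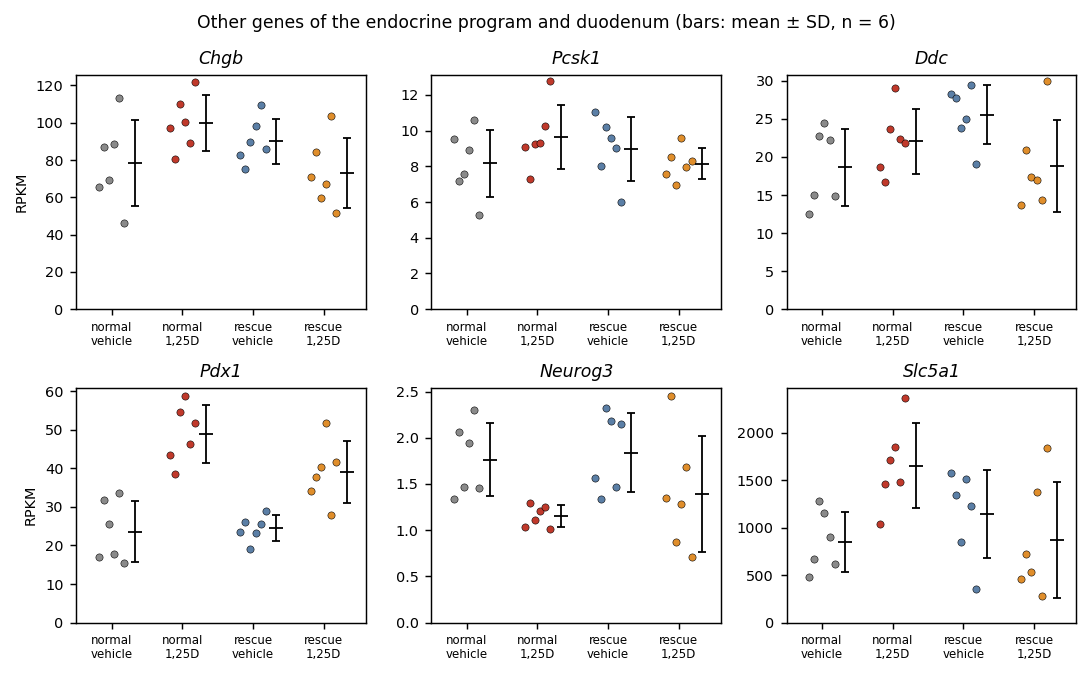
RPKM (vertical axes, linear, starting at 0) of Chgb, Pcsk1, Ddc, Pdx1, Neurog3 and Slc5a1 in each library by group; bars are mean ± SD of 6 libraries. Pdx1 in normal 1,25D sits between 38.5 and 58.8 RPKM, above every normal vehicle library, whose highest value is 33.6.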

How the data were processed

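RNA from the duodenum was depleted of ribosomal RNA with RiboMinus and made into directional ScriptSeq libraries, per the labels' protocols. The submitters' processing notes list TopHat and mm9, without a version or role, and the quantifier is not given in the sources used here. Per the file headers, the authors deposited RPKM values, which were used unchanged. The 30795 entries cover 25410 symbols; entries sharing a symbol were summed (3470 symbols, and among the 10 genes only Tph1). Values carry no read totals, so no counting intervals are given. Relative depth came from the steps between low values of 932 entries; 79.41% of 272 library pairs lay within 0.05 (log2) of the joint estimate.

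Tests used limma 3.58.1 (R 4.3.3) with an intensity trend. The model had 4 group means of log2(RPKM + 0.5) and left 20 residual degrees of freedom, over 20006 genes, two-sided, with Benjamini-Hochberg adjustment over all of them and a threshold of 0.05. Fold changes are on that scale and understate changes of low genes. The 7 comparisons come from 1 fit and share groups. The fit was tested on simulated data with known changes. Relations used Pearson's r and Spearman's rho with 100000 permutations, adjusted within each family (45, 60 and 30 relations), in Python 3.11.15 with scipy 1.17.1, numpy 2.4.6 and pandas 2.3.3. Figures were drawn with matplotlib 3.10.9.

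Named genes are the 10, the 3 tested genes nearest to each by r, called genes of the other lists and up to 4 of the most abundant of each; Casr, Pyy, Insl5, Gast, Ins1 and Ins2 were picked after their values were seen, and Cyp24a1 and Cyp27b1 checked the labels. The 10 genes and the lists were chosen with earlier results of these data known. Of 230 list positions 227 were found. A withheld item of the lists is not reported here. Other lists covered the exocrine pancreas, islets, enteric neurons, smooth muscle, gastric and Brunner glands, mast cells, tuft cells and general epithelium. Alternatives covered the pseudocount, filter, scaling, library weights, replicate block, samples in the fit, trend, marker covariates and leaving out libraries. Upstream sequences came from RefSeq (GRCm38.p6), where all 10 genes matched, in 14 windows.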

Additional observations from a re-analysis of the deposited data

Results flagged for a closer look

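In each of 40 sets of 6 libraries (1 gene in 1 group) the highest and the lowest library were checked for a gap to the nearest other that is large for the set's range (over 0.625 of it), and 3 had one; chance gives about 1 in 20. Cck in normal 1,25D replicate 1 was 29.8 RPKM, where the other 5 lay between 21.6 and 23.8 RPKM. Ghrl in rescue vehicle replicate 2 was 2.93 RPKM, where the others lay between 7.27 and 8.78 RPKM. Tac1 in rescue vehicle replicate 5 was 8.95 RPKM, where the others lay between 4.97 and 5.89 RPKM.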

How the results depend on the processing

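No gene of the 10 was called in any comparison under the main settings, and the count stayed at 0 under the other settings except as follows. Leaving out 1 library gave 0 to 2 calls for 1,25D on the normal diet: 2 without normal vehicle replicate 5, where 411 of all 20006 genes were called, and 1 without replicate 4, where 403 were. It gave 0 to 1 for diet under 1,25D: 1 without rescue 1,25D replicate 4, where 14 of all genes were called. Library weights gave 3 calls for diet under 1,25D, where 1287 of all genes were called; the cause was not tested. All 10 genes were followed for direction in 1,25D against vehicle on each diet, and only some of them in the other comparisons. Among the values followed, directions of 4 genes reversed, all of them genes with no call in the comparison concerned. Tac1 for 1,25D on the normal diet became 0.022 with a pseudocount of 0.1 and 0.012 with quantile normalization, and ran from -0.35 to 0.17 when 1 library was left out. Ghrl in the same comparison became -0.13 with library weights, -0.20 with the pancreas covariate and -0.13 without normal vehicle replicates 1 and 6, and ran from -0.082 to 0.34 when 1 library was left out. Nts there became -0.25 with the general epithelial covariate, which was added after the data were seen. Tph1 on the rescue diet became 0.050 with the pancreas covariate, 0.044 with the smooth muscle covariate and 0.18 with the epithelial one, and ran from -0.12 to 0.11 when 1 library was left out; the cause was not tested. Quantile normalization moved the median of all genes from 0.10 to 0.00 for diet under vehicle and from 0.12 to 0.01 for diet under 1,25D. Fitting the replicate number as a block left the count of called genes among the 10 at 0 in all 7 comparisons; same-numbered libraries had a median correlation of 0.0023 over 36 pairs, and 3 of 24 libraries matched their own number best, so the numbers do not show a pairing. The depth in reads is unknown, so what it limits for the low genes was not tested.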
